A study of Mus musculus with 4 samples.

Results

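The gene *Nfe2l2*, which encodes the transcription factor NRF2, its inhibitor *Keap1* and 8 genes of antioxidant defense (*Hmox1*, *Nqo1*, *Gclc*, *Gclm*, *Txnrd1*, *Srxn1*, *Prdx1* and *Cat*) were followed in single cells of the mouse aorta. The 10 genes were chosen by symbol from 16408 nuclear genes listed in any mouse, and all 10 were listed. SORT-seq, a plate-based method that sorts 1 cell to a well and counts the 3′ ends of its transcripts by unique molecular identifiers (UMIs), was run on 1 plate of 384 wells for each of 4 mice. Cells were taken as wells with at least 1000 UMIs outside the ERCC spike-ins and mitochondrial genes and with at most 25% of UMIs on mitochondrial genes, which left 441 of 1536 wells.

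The first 2 mice are labelled *Epas1* EC-KO (Epas1fl/fl, Cdh5Cre/+) and the other 2 *Epas1* EC-WT (Epas1fl/fl, Cdh5+/+), so that floxed *Epas1*, which encodes the hypoxia-inducible factor HIF-2α, is shared by all 4. The methods of the study describe the Cre as a tamoxifen-inducible form driven by the endothelial *Cdh5* promoter, with littermates as controls. Tamoxifen was given to both groups at 6 weeks of age, and 2 weeks later the aortas were taken, digested with enzymes for 1 hour at 37 °C and sorted for CD31+ CD45- TO-PRO-3- cells. The plates, in the order EC-KO mouse 1, EC-KO mouse 2, EC-WT mouse 1 and EC-WT mouse 2, held 157, 98, 114 and 72 kept wells with 1088901, 851118, 648977 and 566088 UMIs. Median UMIs per kept well were 5796, 7419, 3779 and 5752.5.

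The wells carried the endothelial list of 14 genes at 10419 to 13640 UMIs per 1000000 UMIs of the kept wells (CPM) in each mouse. Smooth muscle genes differed between the groups: the list of 11 summed to 4890 and 6791 CPM in the EC-KO mice against 974 and 1313 CPM in the EC-WT mice. The fibroblast list of 8 summed to 3256 and 1753 against 918 and 1482 CPM. Of 10 immune genes 5 were listed, at 9.18 to 42.4 CPM in sum, with *Csf1r*, *Adgre1*, *Cd3e*, *Cd79a* and *C1qa* at 0, and of 5 erythroid genes only *Alas2* was listed, with all 4 hemoglobin genes at 0. *Epas1* itself stood at 2930, 3148, 3324 and 2351 CPM, with a log2 fold change of 0.13 between the groups (edgeR's quasi-likelihood test, adjusted P = 0.951). A 3′ UMI need not lose an internal exon, so this level does not check the labels. The study's text gives more kept cells for its EC-WT than for its EC-KO mice, whereas the labels give the reverse, so every direction between groups here is that of the mice as labelled.

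NRF2 is held at a low level by KEAP1, an adaptor that passes it to a cullin 3 ubiquitin ligase for degradation. Oxidants and electrophiles modify cysteines of KEAP1, NRF2 then accumulates, enters the nucleus and, with a small MAF partner, binds antioxidant response elements of genes that make glutathione, recycle thioredoxin, detoxify quinones and break down heme. Much of this control acts on the protein, so that the *Nfe2l2* mRNA need not follow NRF2 activity. In endothelial cells (EC) the pathway is known to respond to laminar flow as well as to oxidants.

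The antioxidant response element was searched in the RefSeq promoters (GRCm38.p6) of the members, from 250 bases before to 50 bases after the gene's start, as the letters TGACNNNGC on either strand. The AP-1 motif TGACTCA, which shares its first letters, was searched in the same way and is held by 5.95% of the genes in the table and, among the members, by *Prdx1* and *Srxn1*. Promoters were in the sequence table for 8 members, and 5 of the 8 held a match, against 3781 of 27025 genes in the same table and 17.4% of 6379 genes tested between the genotypes. The matches are shown because NRF2 is known to bind elements of this kind, with 10 flanking bases on each side, 5′ to 3′ on the gene's strand, and with the matched bases in capitals.
Prdx1: cagggaaagcGCTGAGTCAtcccccgtag
Gclm: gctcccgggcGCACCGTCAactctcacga
Txnrd1: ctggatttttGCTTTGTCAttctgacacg
Srxn1: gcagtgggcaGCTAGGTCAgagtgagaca
Nfe2l2: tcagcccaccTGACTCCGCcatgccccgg

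The *Prdx1* stretch is chr4:116685456-116685484 on the plus strand, with the match beginning 133 bases before the start. It holds the AP-1 letters in full as well, so the 2 motifs overlap there. The *Gclm* stretch is chr3:122245413-122245441 on the plus strand, beginning 134 bases before it. That of *Txnrd1*, chr10:82859104-82859132 on the plus strand, lies 92 bases before 1 of 3 listed starts. In *Srxn1*, at chr2:152105542-152105570 on the plus strand, the match begins 28 bases after the start. The *Nfe2l2* stretch is chr2:75704885-75704913 on the minus strand, with the match 240 bases before the start. The 4 matches of the other genes read on the strand opposite to the gene, and that of *Nfe2l2* on its own strand. A match is a description of letters and not a bound site, and in *Keap1*, *Nqo1* and *Cat* these letters are not in this window. No data on binding were analyzed here.

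Counts are of 1 end per molecule, so CPM values of different genes were compared without dividing by length. The 10 genes spanned about 2 orders of magnitude. *Prdx1*, which encodes a peroxiredoxin that reduces hydrogen peroxide (GRCm38 chromosome 4, 116685544 to 116700822), was the highest member, at 264, 307, 382 and 357 CPM, in the order given above. Its 4 values lay above all 4 of *Nfe2l2* (chromosome 2, 75675513 to 75704641), which stood at 221, 224, 191 and 161 CPM. *Keap1* (chromosome 9, 21229730 to 21239361) followed at 67.0, 68.1, 80.1 and 65.4 CPM. *Nfe2l2* was thus the higher of the regulator pair in 4 of 4 mice, while *Keap1* was not separated from the next gene in the order. That gene was *Cat*, which encodes catalase (chromosome 2, 103453849 to 103485160), at 56.9, 65.8, 64.7 and 86.6 CPM.

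Glutathione synthesis begins with glutamate-cysteine ligase. Its catalytic subunit *Gclc* (chromosome 9, 77754535 to 77794485) stood at 41.3, 50.5, 35.4 and 40.6 CPM, and its modifier subunit *Gclm* (chromosome 3, 122245557 to 122270732) at 34.9, 25.8, 27.7 and 45.9 CPM. Between them in the order lay *Txnrd1*, the NADPH-dependent reductase of thioredoxin (chromosome 10, 82833951 to 82897712), at 36.7, 27.0, 38.5 and 37.1 CPM. The ranges of *Gclc* and *Txnrd1* and those of *Txnrd1* and *Gclm* overlapped, so that these 3 genes were not ordered beyond the spread between mice.

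The remaining 3 members were scarce. *Nqo1*, a quinone reductase often used as a readout of NRF2 activity (chromosome 8, 107388225 to 107403206), stood at 17.4, 22.3, 23.1 and 5.30 CPM, with EC-WT mouse 2 apart from the other mice but on only 3 UMIs (95% exact Poisson interval 1.09 to 15.5 CPM). *Srxn1*, which encodes the sulfiredoxin that restores overoxidized peroxiredoxins (chromosome 2, 152105516 to 152111376), stood at 11.02, 11.7, 13.9 and 21.2 CPM. Its range overlapped that of *Nqo1*. *Hmox1*, the inducible heme oxygenase (chromosome 8, 75093621 to 75100589), had 12 UMIs in all, in 9 of 441 wells. Those were 6, 1, 3 and 2 UMIs per mouse, against a limit of 3 UMIs that a count of 0 allows, and no fold was computed. These intervals cover counting error only.

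**Figure D1:**
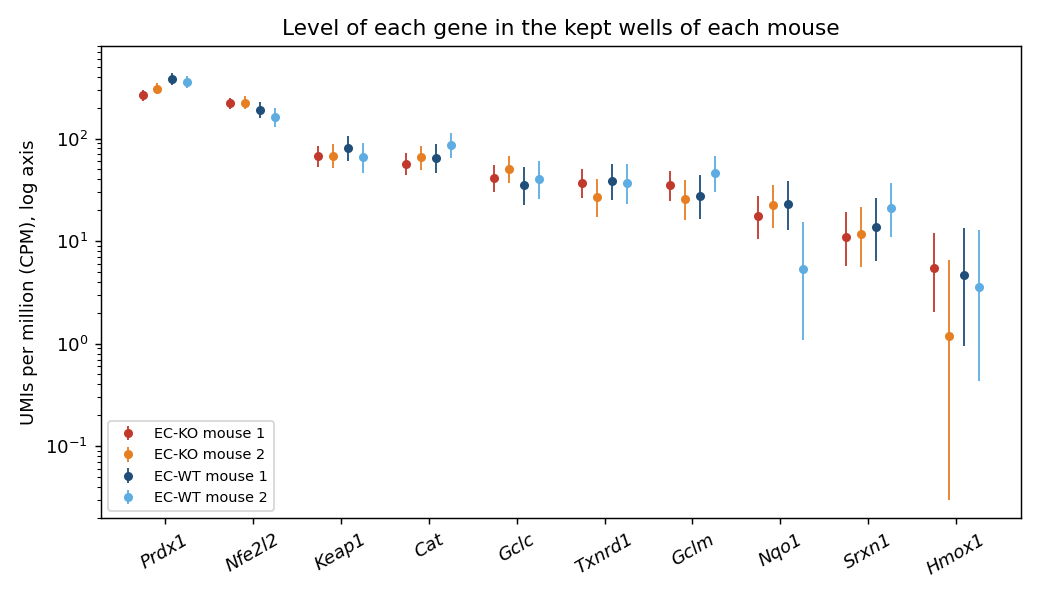
Level of the 10 genes in the kept wells of each mouse, in CPM on a log axis; points are mice and bars are 95% exact Poisson intervals of the count. *Prdx1* lies between 264 and 382 CPM and *Hmox1* between 1.17 and 5.51 CPM, and the intervals widen as the counts fall.

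Detection in single wells followed the level. At least 1 UMI was found in 74.4% of wells for *Prdx1*, 51.7% for *Nfe2l2*, 32.4% for *Keap1*, 30.8% for *Cat*, 17.7% to 18.8% for *Gclc*, *Gclm* and *Txnrd1*, 9.07% for *Nqo1*, 8.16% for *Srxn1* and 2.04% for *Hmox1*. A well held a median of 2, 3, 2 and 3 of the 10 genes in the 4 mice. None of the 10 was found in 37 wells, of which 5 had at least 4000 UMIs, out of 277 wells of that depth. *Nfe2l2* and *Keap1* were found together in 95 wells.

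*Nfe2l2* was found in fewer wells than its level would give if each mouse's wells expressed it at 1 common rate per UMI. The observed shares were 56.7%, 59.2%, 43.9% and 43.1%, against 67.6%, 74.3%, 54.1% and 58.8% at a common rate. Observed over expected came to 0.795 over the 4 mice, below the median of 0.884 for 952 genes with 400 to 1000 UMIs. For *Prdx1* this ratio was 0.983, above the median of 0.900 for 557 genes with 600 to 1500 UMIs. Against this expectation *Nfe2l2* was thus found in fewer wells than the median gene of like abundance, and *Prdx1* in more. The expectation takes the same rate at every depth. In wells below 4000 UMIs, however, *Nfe2l2* was lower per UMI in 3 of 4 mice and *Prdx1* higher in 4 of 4. What part depth had in these ratios was not tested, and the spread of the ratio over the other genes was not computed. The well with the most *Nfe2l2*, in EC-KO mouse 2, held 22 of that mouse's 191 *Nfe2l2* UMIs and was a deep well of 47621 UMIs.

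The share of wells with *Nfe2l2* was higher in both EC-KO mice (57.9 ± 1.76%, SD, n = 2) than in both EC-WT mice (43.5 ± 0.569%, n = 2). The exact two-sided permutation test gave P = 0.33, the smallest it can reach with 2 against 2 mice (Benjamini-Hochberg adjusted over the 10 genes, 0.952). Depth per well differed between the mice. With every well thinned to 1000 UMIs, the shares were 17.8%, 23.5%, 14.9% and 9.72%, and the groups still did not overlap (exact permutation P = 0.33, adjusted 0.667). *Prdx1* shares did not separate the groups at full depth, at 72.0%, 79.6%, 71.1% and 77.8%. After thinning they were 20.4% and 22.4% in EC-KO against 33.3% and 27.8% in EC-WT (exact permutation P = 0.33). Thinned shares of *Cat* were also lower in both EC-KO mice, at 7.01% and 8.16% against 12.3% and 12.5%. Those of *Gclm* and *Srxn1* were higher in both EC-KO mice, with means of 3.95% against 2.45% and 2.61% against 1.13%. They rest on 6, 4, 4 and 1 wells for *Gclm* and 5, 2, 1 and 1 for *Srxn1*. Over the 10 genes, the shares of the groups did not overlap for 2 at full depth (*Nfe2l2* and *Nqo1*) and for 5 after thinning (also *Gclm* and *Srxn1*, but not *Nqo1*). Among the 8385 genes tested between the genotypes they did not overlap for 34% at full depth and 35.3% after thinning. With 2 mice a group the permutation test could not have called any of these differences, so it does not decide whether the shares differ.

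**Figure D2:**
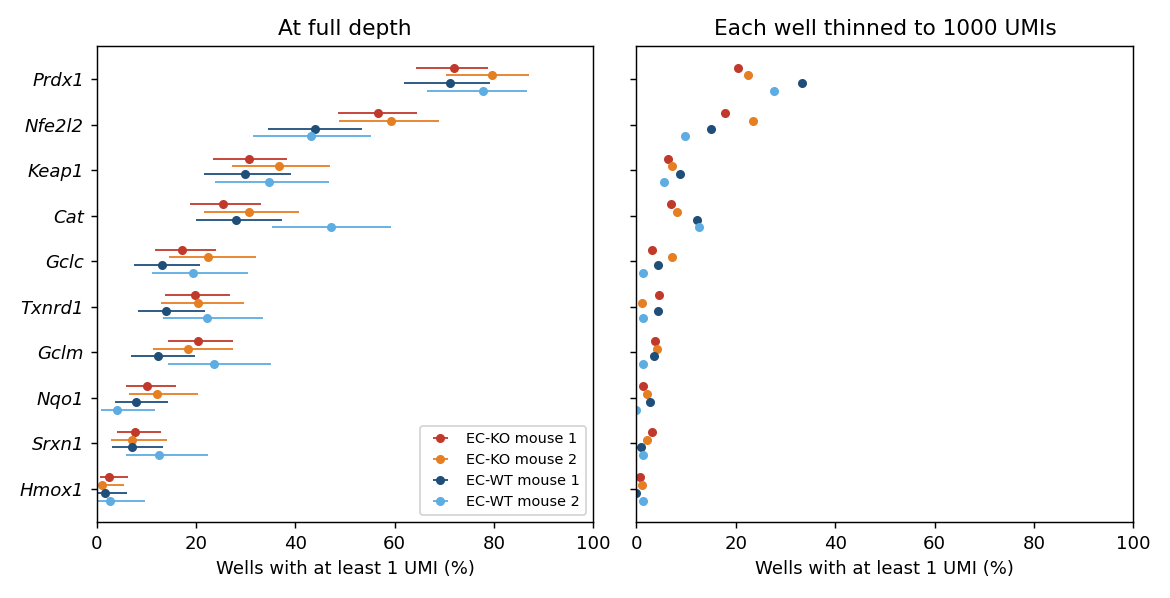
Percent of kept wells with at least 1 UMI of each gene, at full depth with 95% exact binomial intervals (left) and with each well thinned to 1000 UMIs (right); points are mice. *Nfe2l2* is above 56% in both EC-KO mice and below 44% in both EC-WT mice at full depth, and thinning lowers every share except that of *Hmox1* in EC-KO mouse 2, which is the same 1 well.

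No single gene followed a member closely from well to well. Over wells of at least 4000 UMIs, Spearman correlations with 6729 genes were computed within each mouse for the 7 members found in at least 10% of these wells in every mouse, and no gene reached 0.3 in all 4 mice for any of them. The highest mean over the mice ranged from 0.234 for *Cat* to 0.285 for *Gclm*. These points share the depth of their wells and are sparse counts, so the values are a description. In wells of at least 4000 UMIs the median number of the 8 enzyme genes found was 2, 2, 2 and 3 where *Nfe2l2* was found, and 2 in each mouse where it was not.

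Whether loss of endothelial *Epas1* goes with a change of these genes was asked by comparing UMI sums per mouse. Of the 10 members 9 passed the filter on low counts, and none was called at an adjusted P below 0.05 (edgeR's quasi-likelihood test, Benjamini-Hochberg over all genes). Among 8385 genes tested 10 were called, or 0.119%, all of them higher in EC-KO and 7 of them on the smooth muscle list (*Acta2*, *Cnn1*, *Itga8*, *Myh11*, *Myl9*, *Mylk* and *Tagln*), and 553 genes had an unadjusted P below 0.05. These 10 calls fell to 0 when the smooth muscle class of wells described further on was left out, after which the list still summed to 563 and 935 CPM in EC-KO against 206 and 329 CPM in EC-WT. Fewer cells expressing a gene and less RNA per cell cannot be told apart in such sums.

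*Nfe2l2* had a log2 fold change of 0.37 (SE 0.19, 95% interval -0.05 to 0.80), with unadjusted P = 0.0785 and adjusted P = 0.771. Both EC-KO values, 221 and 224 CPM, lay above both EC-WT values, 191 and 161 CPM. It did not pass the test, and its log2 fold change ranged from 0.23 to 0.70 over 22 settings without passing it in any that had a test. The pair of mice sequenced on the same flow cell, EC-KO mouse 2 and EC-WT mouse 1, gave 0.23, with no test. Without the smooth muscle class, whose list genes also stood higher in EC-KO, the value was 0.42. *Keap1* stood at -0.07 (SE 0.25), with overlapping groups.

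*Prdx1* lay in the other direction, at 264 and 307 CPM in EC-KO against 382 and 357 CPM in EC-WT. Its log2 fold change was -0.34 (SE 0.18, 95% interval -0.73 to 0.05), with adjusted P = 0.771. This value depended on which wells were weighed: it was -0.18 in wells of at least 4000 UMIs and -0.75 with each well thinned to 1000 UMIs, where shallow wells count as much as deep ones. *Cat* gave -0.26 (SE 0.26), with -0.0076 in wells of at least 4000 UMIs, -0.68 after thinning and -0.45 to -0.07 with a mouse left out. *Txnrd1* gave -0.19 (SE 0.35), *Gclm* -0.21 (SE 0.38) and *Gclc* 0.30 (SE 0.31). *Nqo1* gave 0.46 (SE 0.59) and turned to -0.22 without EC-WT mouse 2. *Srxn1* gave -0.57 (SE 0.51), and -0.84 to -0.27 with a mouse left out. *Srxn1* reached the filter's 13.3 CPM in the EC-WT mice only, so it could be tested only through the group in which it is higher.

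Without *Srxn1*, the groups did not overlap for 4 of the other 8 tested members, with *Nfe2l2* and *Gclc* higher and *Prdx1* and *Txnrd1* lower in EC-KO. Among all 8385 genes 36.4% did not overlap, 15.7% with both EC-KO mice higher and 20.7% with both lower. The median log2 fold change was -0.13 over the 8 members and -0.01 over all genes tested. Summed over all 10 genes, *Srxn1* included, the level was 757 and 804 CPM in EC-KO against 861 and 823 CPM in EC-WT. A change of 1 on the log2 scale lay outside the intervals of *Nfe2l2* and *Prdx1* in both directions, whereas a rise of that size lay inside the interval of *Nqo1* (-0.83 to 1.75).

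**Figure D3:**
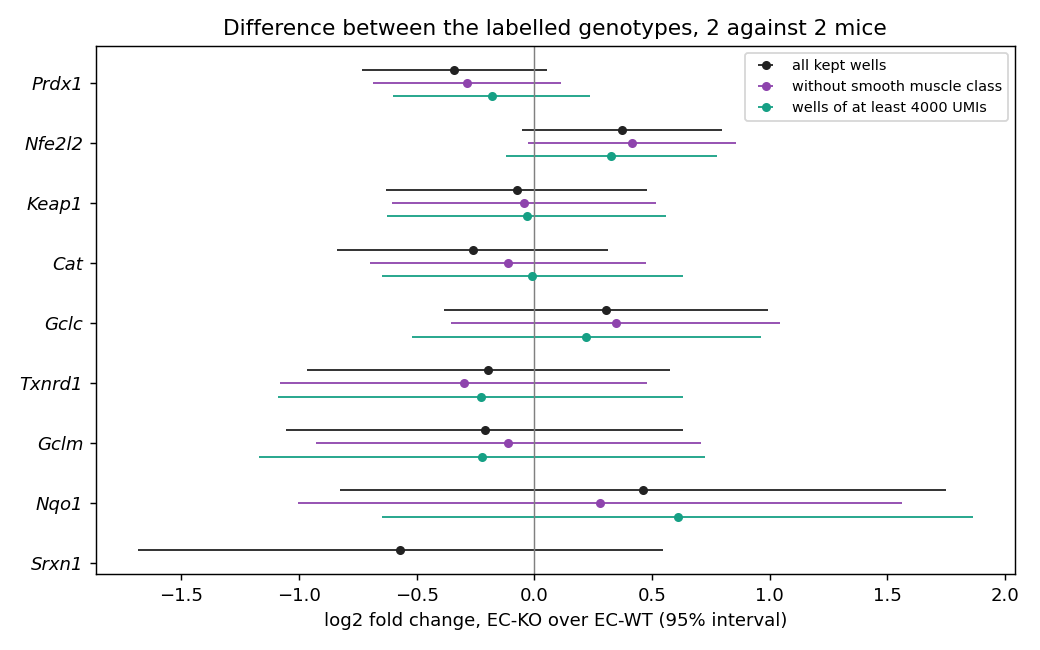
Log2 fold change of 9 genes between mice labelled EC-KO and EC-WT (2 against 2), with 95% intervals, over all kept wells, without the smooth muscle class and in wells of at least 4000 UMIs; *Srxn1* passed the filter in the first only. *Nfe2l2* lies at 0.37 and *Prdx1* at -0.34 over all wells, and every interval includes 0.

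The wider pathway was read from 6 lists of 63 genes that include the members. Of these, 54 besides *Srxn1* were tested between the genotypes and none was called, nor was *Srxn1*. The median log2 fold change was -0.03 over 11 regulators of NRF2, 0.01 over 13 glutathione genes, -0.04 over 12 thioredoxin and peroxiredoxin genes, *Srxn1* left out, 0.17 over 8 heme, quinone and iron genes, -0.17 over 4 superoxide and peroxide genes and -0.04 over 6 genes of NADPH supply. Only *Maff*, a small MAF partner of NRF2, had an unadjusted P below 0.05 (0.0235, log2 fold change 1.29, adjusted P = 0.679), at 27.6 and 31.7 CPM in EC-KO against 16.9 and 7.07 CPM in EC-WT. Among 4 tested sources of oxidants, *Nox4*, an NADPH oxidase that makes hydrogen peroxide, gave 2.22 (adjusted P = 0.278), at 36.7 and 39.9 against 3.08 and 14.1 CPM. Its level within the smooth muscle class is given below. The dissociation stress list of 12 genes summed to 1290 and 2053 CPM in EC-KO against 1635 and 1101 CPM in EC-WT. Over the 10 of them that reached the filter's cutoff in both groups, the median log2 fold change was 0.36, and none was called.

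Wells differ in cell type, so the genes were compared between classes of wells within each mouse, with the mouse as a block. The study follows *Cd36*, a fatty acid transporter, in EC. Wells with at least 3 UMIs of *Cd36* and *Fabp4* together, the latter a fatty acid binding protein added here, were set against all other kept wells. There were 17, 14, 16 and 9 such wells. Their median UMIs were 6578, 9177, 3183 and 5966, against 5746.5, 7156, 3814.5 and 5539 in the other wells. No member was called among the 7 tested, where 141 of 6983 genes, or 2.02%, were called. *Prdx1* was lower in this class in 4 of 4 mice, at 178, 260, 353 and 262 CPM against 276, 318, 388 and 369 CPM, but did not pass the test (log2 fold change -0.40, SE 0.21, adjusted P = 0.567). *Nfe2l2* gave 0.20 (SE 0.24), *Txnrd1* 0.69 (SE 0.48), *Gclm* -0.78 (SE 0.60), *Gclc* -0.35 (SE 0.48), *Cat* -0.20 (SE 0.42) and *Keap1* 0.14 (SE 0.36).

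Among the 48 genes of the antioxidant lists that reached the filter's cutoff on both sides, 2 fell in the *Cd36* and *Fabp4* wells and none rose. *Mgst3*, a microsomal glutathione transferase and peroxidase, stood at 46.5, 36.3, 39.3 and 0 CPM in these wells against 130, 134, 186 and 99.8 CPM in the rest. The log2 fold change was -2.07 (SE 0.39, adjusted P = 0.00108), and the classes did not overlap across the 4 mice. The class values of *Mgst3* rest on 6, 6, 4 and 0 UMIs. *Mgst3* also differed by depth, at 208, 222, 227 and 202 CPM in wells below 4000 UMIs against 108, 108, 146 and 75.0 CPM in deeper wells. That log2 fold change was 0.92 and did not pass the test (edgeR's quasi-likelihood test, adjusted P = 0.172). What part depth had in the fall of *Mgst3* in the class was not tested. *Sod3*, the extracellular superoxide dismutase, stood at 837, 805, 716 and 940 CPM against 1031, 1436, 1225 and 1538 CPM, a log2 fold change of -0.68 (SE 0.16, adjusted P = 0.0106). All 4 mice were lower for both genes. Without EC-WT mouse 1 neither passed the test (adjusted P = 0.117 for *Mgst3* and 0.238 for *Sod3*). *Sod3* was also lost without EC-KO mouse 2 (0.130), without EC-WT mouse 2 (0.0711), without the mouse as a block (0.0981) and with DESeq2 (0.0526).

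Other list genes moved in the same wells. The endothelial genes *Emcn*, *Kdr*, *Robo4*, *Eng* and *Vwf* rose, *Pecam1* fell by 0.51 on the log2 scale, and the smooth muscle genes *Acta2*, *Cnn1*, *Myl9* and *Tpm2* and the collagen genes *Col1a1* and *Col3a1* fell. Of these *Kdr*, *Robo4* and *Col1a1* reached the cutoff only on the side where they are higher. In EC-KO mouse 2 *Vwf* was lower (1453 against 1601 CPM) and *Acta2* nearly even (3269 against 3276 CPM). *Cnn1* did not fall in EC-WT mouse 2 (30.8 against 29.9 CPM), nor *Col3a1* in EC-WT mouse 1 (157 against 135 CPM). Of the *Cd36* and *Fabp4* wells, 3 were also in the smooth muscle class and 6 in the *Dcn* class, both described further on. The immediate early genes *Egr1* and *Fos* of the dissociation stress list rose, by 1.10 and 1.87 on the log2 scale, *Fos* with 2 of 4 mice higher. Their part in the fall of *Mgst3* and *Sod3* was not tested. The median over the 7 members was -0.20 and over all genes tested -0.03.

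A smooth muscle class was formed of wells with at least 1% of UMIs on the 11 smooth muscle genes. It held 11, 5, 3 and 2 wells, and in EC-WT mouse 1 only 7614 UMIs. Median UMIs were 5263, 13048, 2844 and 8259 in the class, against 5964.5, 7419, 3821 and 5752.5 in the other wells. The median log2 fold change of all 6741 genes was -0.34, to which the values of this comparison are to be compared, and 701 genes, or 10.4%, were called. None of the 8 members tested was called. *Nfe2l2* gave 0.02 (SE 0.52), *Prdx1* -0.01 (SE 0.48), *Keap1* -0.80 (SE 0.72), *Cat* -0.62 (SE 0.72), *Gclc* -1.36 (SE 0.93), *Gclm* -0.41 (SE 0.89), *Txnrd1* 0.59 (SE 0.76) and *Nqo1* 0.81 (SE 0.96). *Gclc* rested on only 2, 2, 0 and 0 UMIs in the class and *Nqo1* on 3, 4, 0 and 0. Neither could be tested but through the side where it is higher: *Gclc* reached the filter's 31.0 CPM in the remaining wells only, and *Nqo1* in the class only.

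Of 44 antioxidant list genes that reached the filter's cutoff on both sides of the smooth muscle comparison, 2 fell and none rose. *Gpx8* was called besides, but reached the cutoff in the class only. *Gpx8*, a glutathione peroxidase family member of the endoplasmic reticulum, stood at 250, 115, 263 and 363 CPM against 25.8, 11.9, 9.36 and 12.7 CPM in the rest (log2 fold change 3.56, SE 0.62, adjusted P = 6.76e-07), and with no filter on low counts the log2 fold change was 3.41 (adjusted P = 2.67e-06). The class was higher in every mouse and the values did not overlap, though the value of EC-WT mouse 1 rests on 2 UMIs. *Slc3a2*, the heavy chain that carries the cystine transporter, stood at 87.6, 31.3, 0 and 121 CPM against 262, 355, 374 and 306 CPM (-2.49, SE 0.63, adjusted P = 0.00148). *Slc7a11*, which encodes that transporter, was not listed in any mouse, so these values do not measure cystine transport. *Ftl1*, the ferritin light chain, stood at 463, 521, 131 and 484 CPM against 1123, 1124, 1113 and 928 CPM (-1.59, SE 0.50, adjusted P = 0.0191). *Ftl1* was lower in 4 of 4 mice, on 1 UMI in the class of EC-WT mouse 1. *Slc3a2* was lower in 3 mice, on 7, 3 and 2 UMIs in the class, and in EC-WT mouse 1 its 0 UMIs allow up to 394 CPM, above the 374 CPM of the rest. *Slc3a2* was lost without EC-KO mouse 2 (adjusted P = 0.0861), and *Ftl1* without EC-KO mouse 1 (0.0970), without EC-WT mouse 2 (0.0697) and with a minimum of 2000 UMIs per well (0.147).

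Among the oxidant sources, *Nox4* rose and *Nos3*, the endothelial nitric oxide synthase, fell in this class. *Nox4* stood at 250, 271, 0 and 303 CPM against 19.8, 10.6, 3.12 and 5.46 CPM (log2 fold change 4.23, adjusted P = 7.94e-09; 4.08 with no filter), the 0 being in the class of 7614 UMIs, where 3 UMIs are 394 CPM. It too passed the filter through the class alone. *Nos3* stood at 87.6, 83.4, 131 and 424 CPM against 553, 776, 630 and 502 CPM (-2.39, adjusted P = 0.000476). *Fos* rose by 2.79 on the log2 scale, on 1 UMI in the class of EC-WT mouse 2. Of the endothelial list 9 genes, *Cdh5*, *Egfl7*, *Emcn*, *Eng*, *Nos3*, *Pecam1*, *Tek*, *Tie1* and *Vwf*, and of the fibroblast list *Dcn* and *Lum* fell in the class, while *Col1a1* and *Col3a1* rose with the smooth muscle genes that define it. In EC-WT mouse 1, however, *Dcn* (394 against 95.1 CPM) and *Lum* (131 against 9.36 CPM) were higher in the class, and *Col3a1* was not (131 against 139 CPM). In the class of EC-WT mouse 2, *Dcn* and *Lum* were at 0 CPM, where 3 UMIs are 182 CPM. The part of these list genes in the levels of the antioxidant genes was not tested.

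Wells with at least 3 UMIs of *Dcn* and *Lum* together, matrix genes of fibroblasts, outside the smooth muscle class numbered 22, 7, 7 and 5. They were deeper in every mouse, with median UMIs of 7807, 9871, 6737 and 9911. The other wells outside the smooth muscle class had 5674.5, 6909.5, 3779 and 5450. What part depth had in the values of this comparison was not tested. Of 6617 genes 41 were called, or 0.62%, and of the 47 tested antioxidant list genes none was. Besides *Dcn* and *Lum*, *Col1a1*, *Col1a2*, *Col3a1* and *Emcn* rose and *Cldn5* fell. *Col1a1* was higher in the EC-KO mice only, at 491 and 59.8 against 33.4 and 17.4 CPM, and stood at 0 and 0 against 0 and 26.3 CPM in EC-WT. *Gclc* gave a log2 fold change of -1.10 (SE 0.62, adjusted P = 0.786), on only 4, 1, 1 and 2 UMIs in these wells, and *Prdx1* gave -0.40 (SE 0.22, adjusted P = 0.786). The other 5 members tested stood between -0.09 and 0.20. *Mgst3* gave -1.22 (adjusted P = 0.147), on 1 UMI in these wells of EC-WT mouse 2.

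**Figure D4:**
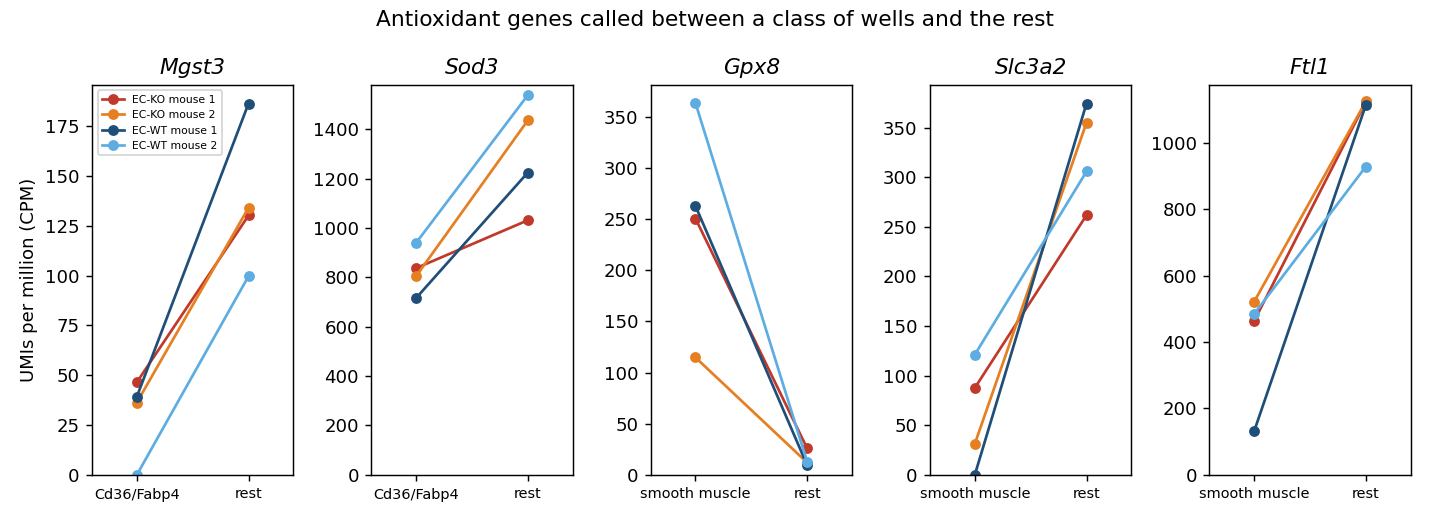
Level of the 5 antioxidant list genes called between a class of wells and the remaining kept wells, in CPM; each line joins the 2 values of 1 mouse. *Mgst3* and *Sod3* are lower in *Cd36* and *Fabp4* wells, in all 4 mice, and *Gpx8* is higher and *Ftl1* lower in smooth muscle class wells, with 2 and 1 UMIs in EC-WT mouse 1. *Slc3a2* is lower there in 3 mice, and the point at 0 in EC-WT mouse 1 allows up to 394 CPM.

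Shallow and deep wells of each mouse were also compared, which was decided after the data had been seen, and no member passed the test. Kept wells below 4000 UMIs numbered 54, 23, 61 and 26, or 34.4%, 23.5%, 53.5% and 36.1% of each mouse's wells. *Prdx1* stood at 364, 332, 629 and 624 CPM in these shallow wells, against 250, 305, 316 and 326 CPM in the deeper ones. *Cat* stood at 81.8, 129, 117 and 253 CPM, against 53.4, 61.5, 50.8 and 67.1 CPM. Both were higher per UMI in shallow wells in 4 of 4 mice, and for both the 2 kinds of wells did not overlap, though *Cat* rested on 7 to 16 UMIs per mouse in the shallow wells.

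With the mouse as a block, *Cat* gave a log2 fold change of 1.16 (SE 0.34, unadjusted P = 0.00123, adjusted P = 0.200) and *Prdx1* 0.64 (SE 0.19, unadjusted P = 0.0014, adjusted P = 0.210). Of 6728 genes 17 were called, or 0.253%, of which 14 were lower in shallow wells, and 0 of the 7 members tested. *Nfe2l2* was the lower in shallow wells in 3 of 4 mice, at 134, 258, 154 and 84.3 CPM against 234, 222, 201 and 170 CPM (-0.49, SE 0.26, adjusted P = 0.659). Across all genes the median was -0.01, and across the 7 members 0.31. Of the 46 antioxidant list genes that reached the filter's cutoff in both kinds of wells, *Prdx1* and *Cat* included, 11 (23.9%) were higher and 5 (10.9%) lower in the shallow wells of all 4 mice, against 7.28% higher and 8.11% lower among 6150 such genes, and none of the 46 was called.

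No gene of the endothelial, smooth muscle or fibroblast lists was called by depth. The endothelial list summed to 9350, 13608, 13807 and 13431 CPM in the shallow wells against 10569, 13219, 13595 and 11477 CPM in the deeper ones. Smooth muscle genes summed to 6144, 1736, 3912 and 2157 against 4714, 7135, 189 and 1214 CPM. Fibroblast genes summed to 1845, 812, 936 and 1685 against 3454, 1817, 914 and 1458 CPM, lower in the shallow wells of both EC-KO mice only. The mitochondrial share was 6.05%, 10.7%, 7.24% and 8.97% against 6.35%, 9.41%, 7.20% and 8.65%. What part these had in the levels of *Prdx1* and *Cat* was not tested. EC-WT mouse 1 held the largest share of shallow wells, and in wells of at least 4000 UMIs *Prdx1* stood at 250 and 305 CPM in EC-KO against 316 and 326 CPM in EC-WT.

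**Figure D5:**
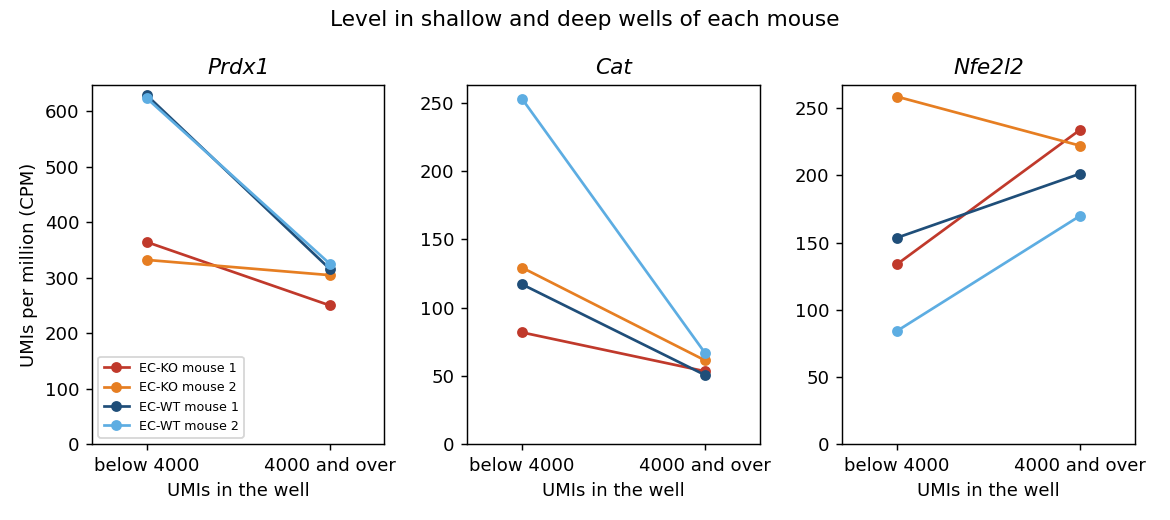
Level of *Prdx1*, *Cat* and *Nfe2l2* in wells below 4000 UMIs and in wells of 4000 UMIs and over, in CPM; each line joins the 2 values of 1 mouse. *Prdx1* and *Cat* are higher in the shallow wells of all 4 mice, whereas *Nfe2l2* is higher in the deeper wells of 3.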

How the data were processed

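The authors deposited UMI counts, read counts with duplicates and expected counts of transcripts (UMI counts corrected for identifier saturation) per gene and well, unfiltered and not normalized. The submitters' processing notes name BWA 0.7.15, Seurat, GRCm38 and mm10. UMI counts were used here, and ERCC and mitochondrial rows were left out. UMIs were summed per mouse, or per mouse and class of wells, and tested with edgeR 4.0.16 (R 4.3.3; TMM, filter on low counts, quasi-likelihood test, two-sided), called at an adjusted P below 0.05. Class tests carried the mouse as a block. The flow cell of 2 mice is shared, and the other 2 have 1 each. Kept UMIs per mouse ran from 566088 to 1088901. In the labels each plate is a separate mouse. Plates of a group differed by more than sampling noise (chi-square per degree of freedom 4.54 and 3.01). On simulated data with 200 genes changed by 2 on the log2 scale, 181 were recovered between genotypes, 183 for the *Cd36* and *Fabp4* class, 58 for the smooth muscle class, 186 for the *Dcn* class and 180 for depth. The changed genes were drawn only from the better counted ones, which left out *Nqo1* and *Srxn1* between genotypes. Smaller changes were not simulated, so these counts do not give the recovery of scarce members or of small differences.

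Alternatives were DESeq2 1.42.0 and its size factors, no filter, other cell limits, transcript and read counts (expected counts rounded), other classes, a replicate block and each mouse left out. No doublet caller was run, but wells over 3 times the median UMIs were left out as 1 alternative. Named are the members, *Epas1*, and list genes called in a comparison. A gene at r of at least 0.3 with a member in every mouse would also have been named. *Maff*, and *Nox4* between genotypes, *Prdx1*, *Cat* and *Mgst3* by depth, and *Mgst3* in the *Dcn* class were named after their values were seen, as were *Alas2* and *Slc7a11*. Members and lists were chosen with earlier results of these data known. Positions are from GENCODE M21 and RefSeq. Reads of *Gclm*, *Nfe2l2* and *Txnrd1* may be shared with genes annotated on the same strand, and reads of *Prdx1* with pseudogene copies, which was not tested. Tables used Python 3.11.15, numpy 2.4.6, pandas 2.3.3, scipy 1.17.1 and matplotlib 3.10.9.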

Additional observations from a re-analysis of the deposited data

Results flagged for a closer look

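Between the smooth muscle class and the other wells, *Prdx1* lay in opposite directions in the groups. It was lower in the class in both EC-KO mice, at 225 and 250 CPM against 268 and 314 CPM, and higher in both EC-WT mice, at 1313 and 484 CPM against 371 and 353 CPM. The EC-KO difference minus the EC-WT difference was -590 CPM, and it was not tested. The EC-WT values rest on 10 UMIs in 3 wells and 8 UMIs in 2 wells. *Cat* lay the same way, at 12.5 and 20.8 CPM against 60.5 and 71.5 CPM in EC-KO and 394 and 121 CPM against 60.8 and 85.5 CPM in EC-WT, on 1, 2, 3 and 2 UMIs in the class, and was not tested either. *Nqo1* lay the other way, with mean differences of 21.8 CPM in EC-KO and -14.4 CPM in EC-WT, on 3, 4, 0 and 0 UMIs in the class. The EC-KO difference of *Nqo1* minus its EC-WT difference was 36.2 CPM, also not tested.

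Wells that were not kept also held UMIs of these genes, above the 3 UMIs that a count of 0 allows. *Prdx1* had 5, 18, 29 and 21 UMIs in the wells not kept of EC-KO mouse 1, EC-KO mouse 2, EC-WT mouse 1 and EC-WT mouse 2, and *Nfe2l2* had 5, 11, 4 and 13. In EC-WT mouse 2, *Gclm* had 5, *Keap1* 4 and *Txnrd1* 4. In rows L to P of the plates, in which no well was kept, no member had more than 3 UMIs in any mouse.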

How the results depend on the processing

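No member was called in any setting of any comparison. The log2 fold changes of *Nfe2l2*, *Gclc* and *Prdx1* between genotypes kept their sign in every setting that could fit them. The count of genes called between genotypes was 115 with no filter on low counts, 22 with a minimum of 2000 UMIs, 17 with no limit on the mitochondrial share, 8 with the replicate number as a block, and 0 with read counts (826 at an unadjusted P below 0.05), without the smooth muscle class (455), without wells over 3 times the median UMIs (461) and without the smooth muscle and *Dcn* classes (474). With DESeq2 it was 12. With 1 mouse left out it was 21 without EC-KO mouse 1, 4 without EC-KO mouse 2, 129 without EC-WT mouse 1 and 117 without EC-WT mouse 2. The replicate numbers gave no sign of pairing the mice (correlation of deviations -0.05 over 8385 genes), though with 2 mice a group this check cannot exclude it.

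The *Cd36* and *Fabp4* class had 76 calls with DESeq2, 58 without the replicate block and 30 to 91 with a mouse left out. The smooth muscle class had 263 to 690 with a mouse left out. The *Dcn* class had 21 with DESeq2, 78 with no filter, 16 without the block and 3 to 58 with a mouse left out, and depth had 3 with DESeq2, 8 with a minimum of 2000 UMIs, 4 without the block and 4 to 16. The groups did not overlap in the share of wells for 2 of the 10 genes, for 5 after thinning and for 3 to 8 with a mouse left out, where 1 mouse stands for its group and overlap is less likely by construction.

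Signs turned as follows, and the cause was not tested. Between genotypes *Nqo1* was -0.087 without wells over 3 times the median, and *Gclm* was 0.22 with read counts, 0.090 without wells over 3 times the median and 0.10 without both classes. Between the 2 mice sequenced on 1 flow cell, with no test, *Cat* was 0.023 and *Nqo1* -0.045. With a mouse left out *Keap1* ran from -0.23 to 0.10, *Nqo1* from -0.22 to 1.92, *Gclm* from -0.52 to 0.16 and *Txnrd1* from -0.47 to 0.026. In the *Cd36* and *Fabp4* class *Keap1* was -0.58 and *Cat* 0.33 with at least 6 UMIs, and with a mouse left out they ran from -0.13 to 0.35 and from -0.59 to 0.40. In the smooth muscle class *Nfe2l2* was -0.13 with no filter and -0.29 with a minimum of 2000 UMIs, and *Prdx1* was 0.17 with DESeq2 or its size factors, 0.15 with that minimum and 0.037 without the block. With a mouse left out these ran from -0.23 to 0.29 and from -0.18 to 0.11, and *Txnrd1* from -0.078 to 0.85. In the *Dcn* class *Nfe2l2* was -0.079 with no filter and -0.056 with at least 6 UMIs, where *Gclm* was -0.13. With a mouse left out *Nfe2l2* ran from -0.10 to 0.30, *Keap1* from -0.23 to 0.58, *Gclm* from -0.24 to 0.67 and *Cat* from -0.58 to 0.18. By depth, *Gclc* was 0.13 with a minimum of 2000 UMIs and *Gclm* -2.10 with shallow wells taken below 2000 UMIs. With a mouse left out *Keap1* ran from -0.49 to 0.054, *Gclc* from -0.26 to 0.20 and *Gclm* from -0.10 to 0.69.

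With 2 mice a group and 12 to 56 UMIs of *Hmox1*, *Srxn1* and *Nqo1*, only large differences of those genes could have been seen. Where leaving a mouse out left 1 in its group, that mouse is assumed to vary like the others. The comparison by depth, and the genotype comparisons without the *Dcn* class, without *Rn45s* and in wells of at least 4000 UMIs, were chosen after seeing the data.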
